A study of Mus musculus with 12 samples.

Results

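The comparison described here is that of spinal cord from vehicle-treated SMA mice with spinal cord from wildtype mice. Its members are the 4 arrays of each group, 8 of the 12 in the series, taken by their titles, and all 22626 non-control probe sets of the array were compared. The labels give 4 mice a group, all aged 13 days. All mice belonged to line 4299, an FVB line with the human transgenes Tg(SMN2)89Ahmb and Tg(SMN2*delta7)4299Ahmb, both homozygous in both groups. The groups differed at the mouse gene, the targeted allele Smn1tm1Msd: wildtype mice are labelled mSmn +/-, so they carried 1 intact allele and were not wildtype in the strict sense, and SMA mice mSmn -/-. The SMA group is labelled untreated in its titles, but the labels also give both groups vehicle, saline injected into the peritoneum from day 5. Sex is not given, and the labels name both the whole cord and lumbar segments. RNA came from frozen blocks of cords that had been perfused with fixative.

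Spinal muscular atrophy (SMA) is a motor neuron disease of childhood that follows from too little SMN (survival motor neuron) protein. SMN works with the Gemin proteins to load rings of Sm proteins onto the small nuclear RNAs of the spliceosome. Humans have a second gene, SMN2, whose transcript mostly skips an exon and yields little full-length protein, and mice without their own Smn gene live for a short time on human SMN2 and the transgene that lacks that exon. In mice of this age the cord is being myelinated, and axons and synapses are still maturing.

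Wildtype array 2 stood apart from the other wildtype arrays. Over all probe sets its log2 values correlated at 0.945 to 0.948 with wildtype arrays 1, 3 and 4, which correlated at 0.986 to 0.988 with each other, and the SMA vehicle arrays correlated at 0.988 to 0.99 among themselves. It carried transcripts of the thymus: the summed signal of 22 thymus and T cell genes was 76472 on it, against 4280 to 4485 on the other wildtype arrays and 5302 to 5664 on the SMA vehicle arrays. Results are therefore given with and without it. Xist, the RNA of the inactive X chromosome, was above 1000 on wildtype array 3 and SMA vehicle arrays 1 and 4, where the Y-linked gene Eif2s3y was at 0.3 to 2.4, so each group holds mice of both sexes by these transcripts. The ratio of 3′ to 5′ control signal for Gapdh lay between 0.73 and 0.76 on all 8 arrays, and that for Actb was 1.22, 1.19, 1.44 and 1.33 on the wildtype and 1.21 to 1.24 on the SMA vehicle arrays, highest on wildtype arrays 3 and 4. Values are MAS5 signal, a linear brightness scaled to the same trimmed mean on each array (695.4 to 696.6 here), and signals are listed in the order of arrays 1 to 4. A difference is SMA vehicle minus wildtype on the scale log2(signal + 16), with the standard error of the linear model, and it understates the change of dim genes. A gene is said to have risen or fallen at an adjusted p under 0.05 (limma, Benjamini-Hochberg over all probe sets). The number of arrays limits the precision: the median standard error was 0.16.

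The genotype was accompanied by a broad change. Of the 22626 probe sets 7082 passed (31.3%): 3726 rose (16.5%) and 3356 fell (14.8%), and 1504 (6.65%) changed over 2-fold. The 4 and 4 arrays did not overlap at 7050 probe sets (31.2%). Without wildtype array 2, 8803 passed and 6738 of the 7082 (95.1%) passed again in the same direction. Falls were deeper than rises: 27 probe sets fell over 8-fold and 2 rose as far. Counted as genes by the brightest probe set of each, 18.0% of 12393 genes rose and 16.5% fell, and 3.68% rose and 3.66% fell over 2-fold. Without wildtype array 2 these shares were 22.0% and 20.2%. All counts of gene lists that follow are to be read against these shares.

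Smn1, the gene removed in this model, was the check of the labels. Signals were 305.7, 414.3, 263.4 and 268.6 in wildtype and 3.6, 3.7, 3.9 and 5.7 in SMA vehicle cords, and no SMA vehicle array came near the lowest wildtype array. Smn1 fell by 4.00 ± 0.19 on the log2 scale (adjusted p = 6.75e-07), or fell by 3.87 without wildtype array 2. With SMA vehicle signals near 0, the offset of 16 decides how deep the fall appears. These mice carry human SMN2, and the probe set gave almost no signal on their arrays. In the list of the SMN complex 2 of the 9 measured genes rose, 1 fell and 6 did not pass (3 rose and 1 fell without wildtype array 2), Smn1 being the one that fell. Prmt5, which methylates Sm proteins before assembly, rose by 0.53 ± 0.08, and Gemin7, a core subunit, rose by 0.53 ± 0.09. Gemin2 (-0.07), Gemin8 (-0.02) and Ddx20 (0.15), also called Gemin3, did not pass.

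Genes next to Smn1 on mouse chromosome 13 were looked at because a targeted allele can carry flanking DNA of the strain in which it was made. Among the 40 nearest genes with a probe set, 20 on each side, 8 rose and 6 fell, with a median difference of 0.04. Serf1, the immediate neighbour, stood at 357.7, 254.4, 256.1 and 293.7 in wildtype and 711.6, 525.9, 919.1 and 797.5 in SMA vehicle cords, and rose by 1.28 ± 0.16 (adjusted p = 6.99e-05). The SMA vehicle cords lay above all wildtype cords, and the 3 other neighbours that rose over 2-fold were Enc1 (1.71), Nln (1.44) and Cartpt (1.33). Enc1 is an actin-binding protein of neurons, Nln a peptidase and Cartpt the precursor of a neuropeptide. The position of the allele and the difference in SMN cannot be told apart at these genes.

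Several components of the snRNP particles that SMN assembles were higher. Among Sm and LSm proteins and their partners, 7 of the 18 measured genes rose and 11 did not pass (14 rose without wildtype array 2), with a median difference of 0.28, or 0.41 without wildtype array 2. Snrpa1, a protein of the U2 particle, stood at 1018, 1770.4, 1077 and 1011 in wildtype and 2149.8, 2432, 2385 and 2359 in SMA vehicle cords. The wildtype array with thymus transcripts was the highest of its group, and Snrpa1 rose by 0.97 ± 0.15 (adjusted p = 0.000275), or 1.16 (adjusted p = 5.48e-07) without it. Coil, the scaffold of Cajal bodies, rose by 0.52 ± 0.09, and Phax, the adaptor that exports snRNAs from the nucleus, rose by 0.52 ± 0.08. Snrpb (0.11), Snrpe (0.19) and Snrpc (0.05) did not pass with all arrays. Snrpb (0.33) and Snrpe (0.45) passed without wildtype array 2.

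Splicing regulators changed in both directions: 11 of the 28 measured genes rose, 3 fell and 14 did not pass (16 rose and 3 fell without wildtype array 2), with a median difference of 0.22, or 0.39 without wildtype array 2. Rbfox1, which controls neuronal exons, stood at 4484, 3302, 3900.3 and 3783 in wildtype and 6464, 6844, 7469 and 7356 in SMA vehicle cords and rose by 0.87 ± 0.09. Its relative Rbfox2 rose by 1.57 ± 0.25, and the neuronal regulators Nova1 and Ptbp2 rose by 0.66 ± 0.11 and by 0.53 ± 0.10. Qk, the RNA-binding protein quaking that oligodendrocytes use to mature myelin transcripts, stood at 9444, 8972, 14018 and 11999 in wildtype and 6296, 6229.9, 4689.9 and 4526 in SMA vehicle cords and fell by 1.02 ± 0.15 (adjusted p = 0.000184). Mbnl1, a regulator of fetal to adult splicing switches, fell by 0.89 ± 0.12. Among genes reported as modifiers or targets of SMN, 4 of the 15 measured genes rose, 4 fell and 7 did not pass (5 rose and 4 fell without wildtype array 2). They include the actin bundler Pls3, which fell by 0.98 ± 0.10, and the calcium sensor Ncald, which rose by 0.94 ± 0.09. Pls3 and Ncald did not overlap between the groups.

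**Figure D1:**
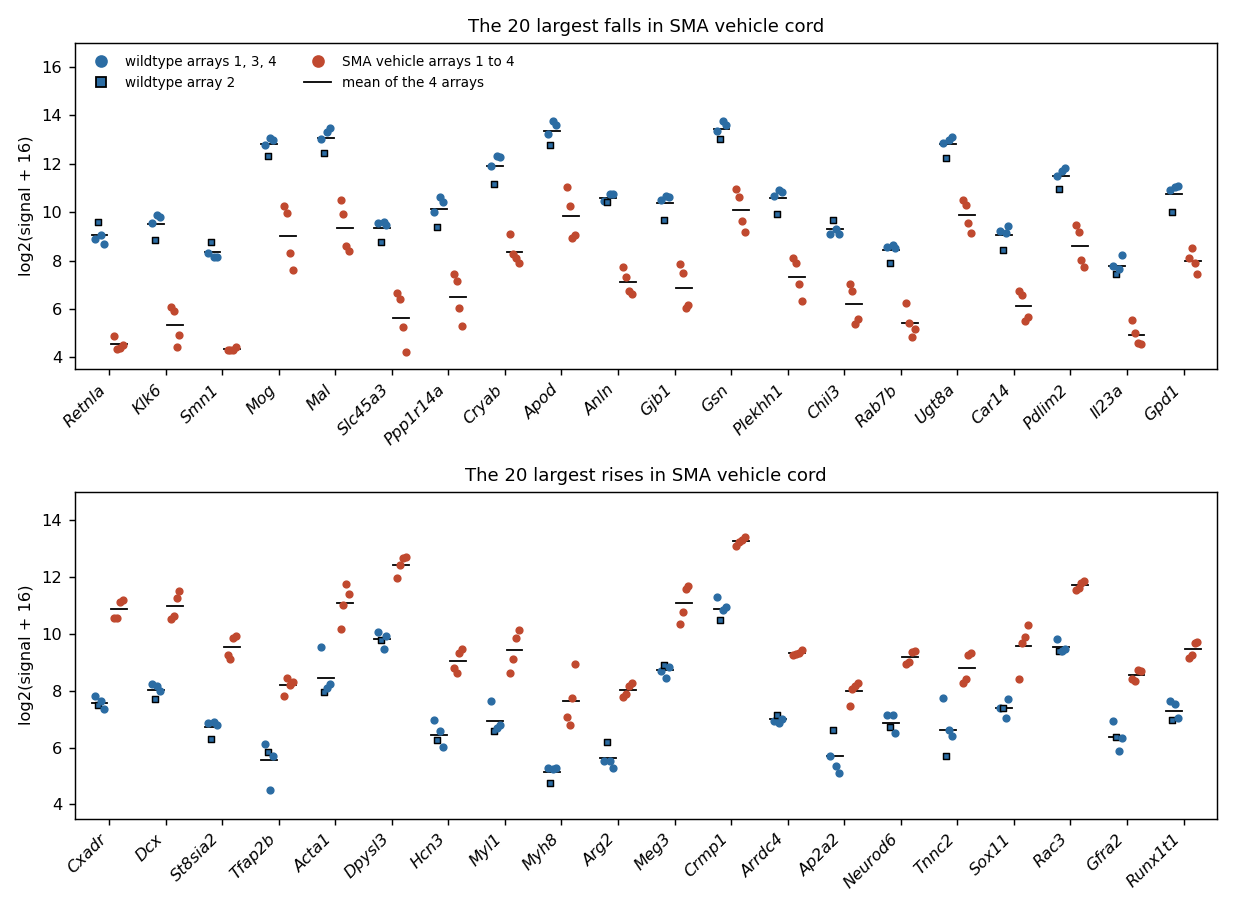
Signal of the 20 genes of largest fall (top) and of largest rise (bottom) on each array, as log2(signal + 16) on the vertical axis. Blue marks wildtype, red SMA vehicle, the square wildtype array 2 and bars the mean of 4 arrays. The groups do not overlap for any of these genes, which were chosen for that, and falls such as Mog (-3.77) reach further than rises such as Cxadr (3.29).

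Some of the largest changes are given here gene by gene. Cxadr, an adhesion molecule of developing neurons that also serves as a virus receptor, stood at 211.5, 164.4, 182.0 and 147.3 in wildtype and 1487, 1495, 2233 and 2344 in SMA vehicle cords and rose by 3.29 ± 0.19 (adjusted p = 6.75e-07). Runx1t1, a corepressor of transcription, stood at 182.3, 109.6, 167.8 and 115.5 in wildtype and 553.2, 596.5, 804.0 and 823.4 in SMA vehicle cords, and Arg2, the mitochondrial arginase, at 30.6, 56.6, 30.1 and 23.0 in wildtype and 204.6, 217.6, 270.9 and 295.2 in SMA vehicle cords. Every SMA vehicle signal of these genes was above every wildtype signal, which was a condition of their choice. Apod, a lipid carrier made by oligodendrocytes and other cells, stood at 9515, 7020.4, 13914 and 12516 in wildtype and 2099, 1192, 474.8 and 514.4 in SMA vehicle cords, and Slc45a3, a sugar transporter, at 725.7, 424.0, 752.2 and 694.4 in wildtype and 84.4, 70.0, 22.6 and 2.8 in SMA vehicle cords. Both fell furthest on SMA vehicle arrays 3 and 4, as did the myelin gene Mog described below. Rac3, a small GTPase of neurons, stood at 896.2, 662.3, 655.1 and 689.1 in wildtype and 3008, 3147, 3508 and 3669.5 in SMA vehicle cords, and Pdlim2, an adaptor of the actin cytoskeleton, at 2850.0, 1979, 3289 and 3619 in wildtype and 690.5, 567.4, 246.7 and 198.7 in SMA vehicle cords.

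Myelin genes fell steeply. Myelin is the lipid-rich membrane that oligodendrocytes wrap around axons, and its main proteins are made mostly by the mature cells. Of the 12 measured genes of compact myelin, each by its brightest probe set, all 12 fell, with a median difference of -2.22, or -2.33 without wildtype array 2, against 16.5% of all genes. Mog, found on the outermost layer of the sheath, had signals of 6997, 5152, 8646 and 8089.9 in wildtype and 1187, 993.2, 298.4 and 177.3 in SMA vehicle cords. Mag, an adhesion molecule of the inner myelin layer, had 10439, 7740.0, 14235 and 13259 in wildtype and 4243, 3600.2, 1680.0 and 1198 in SMA vehicle cords, and fell by 2.23 ± 0.33 (adjusted p = 0.000254). In both genes SMA vehicle arrays 1 and 2 kept more signal than arrays 3 and 4, and the wildtype array with thymus transcripts was the lowest of its group. Cldn11, the tight junction protein of myelin, fell by 2.64 ± 0.39, Mobp, a small basic protein, fell by 2.21 ± 0.35, and Cnp, the phosphodiesterase of uncompacted myelin, fell by 0.93 ± 0.15. For Mbp the 8 probe sets differed by -0.98 to 0.11. In bulk tissue, fewer cells of a type and less RNA per cell cannot be told apart, here and in what follows.

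The summed signal of the myelin list was 130855, 100831, 160796 and 155289.6 on the wildtype arrays and 63282, 56808, 38552 and 31898 on the SMA vehicle arrays. The highest SMA vehicle array was below the lowest wildtype array. Other oligodendrocyte genes were among the 20 largest falls. Klk6, a protease of oligodendrocytes, stood at 734.6, 445.3, 920.8 and 881.7 in wildtype and 52.4, 43.8, 5.8 and 14.5 in SMA vehicle cords. Gjb1, the connexin that couples the layers of myelin, stood at 1427, 797.5, 1597 and 1564 in wildtype and 217.7, 160.7, 49.3 and 54.7 in SMA vehicle cords. Ppp1r14a, an inhibitor of myosin phosphatase, stood at 1015, 650.3, 1582 and 1335 in wildtype and 158.5, 126.0, 48.9 and 23.0 in SMA vehicle cords. In all 3 genes SMA vehicle arrays 3 and 4 were lower than arrays 1 and 2. Gsn, which severs actin filaments as the myelin sheath spreads, fell from 10382, 8409, 13784 and 12257 to 1986, 1573, 787.7 and 560.9. Anln (-3.49), a scaffold of septin filaments, Car14 (-2.92), a carbonic anhydrase, Gpd1 (-2.78), which links glycolysis to glycerolipid synthesis, and the small GTPase Rab7b (-2.99) fell as well.

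Earlier stages of the lineage split. In the list of precursor and early lineage genes, 2 of the 12 measured genes rose, 7 fell and 3 did not pass (2 rose and 8 fell without wildtype array 2), with a median difference of -0.79, or -0.96 without wildtype array 2. Pdgfra, the growth factor receptor that marks precursors, stood at 2023, 1518, 1692 and 1841 in wildtype and 2363, 2614, 2241 and 2459.8 in SMA vehicle cords and rose by 0.45 ± 0.10 (adjusted p = 0.0046), and Ptprz1, a phosphatase of precursors and astrocytes, rose by 0.59 ± 0.10. The precursor proteoglycan Cspg4 did not pass (-0.11 ± 0.19, adjusted p = 0.71). Factors that drive differentiation fell: Myrf, the activator of myelin genes, stood at 1835, 961.9, 1646 and 1974 in wildtype and 617.4, 504.4, 239.8 and 176.3 in SMA vehicle cords and fell by 2.13 ± 0.33, and Nkx6-2 at 202.3, 121.7, 315.4 and 325.0 in wildtype and 37.1, 29.6, 20.1 and 13.9 in SMA vehicle cords and fell by 2.59 ± 0.28. The groups did not overlap for either. Olig2 (-0.99) and Sox10 (-1.18), which are needed throughout the lineage, fell as well. Among genes of Notch, Hes, Id and Wnt signalling, which can hold precursors back, 6 of the 22 measured genes rose, 2 fell and 14 did not pass (8 rose and 3 fell without wildtype array 2). The inhibitor Id4 rose by 0.95 ± 0.11, the Notch target Hes5 rose by 0.84 ± 0.21, and the ligand Bmp4 fell by 1.36 ± 0.17.

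Enzymes of cholesterol synthesis fell together. Cholesterol is a main lipid of myelin and is made within the nervous system, and its enzymes are switched on by SREBP2, the product of Srebf2, which binds sterol elements beside CCAAT boxes bound by NF-Y. Of the 18 measured genes 14 fell and 4 did not pass (16 fell without wildtype array 2), with a median difference of -0.66, or -0.78 without wildtype array 2. Idi1, an isomerase of the isoprenoid steps, stood at 4762, 3690.2, 5799 and 5466 in wildtype and 2272, 2265, 2002 and 1838 in SMA vehicle cords, and Msmo1, a sterol oxidase, at 5542, 3970.4, 6198 and 5632 in wildtype and 2523, 2569.6, 2199.5 and 2014 in SMA vehicle cords. Both were below the lowest wildtype signal on every SMA vehicle array, and Idi1 (-1.21) and Msmo1 (-1.18) fell with Lss (-1.17), which closes the sterol rings. Hmgcs1, the enzyme before the rate-limiting step, had 15265, 12766, 17826 and 19374 in wildtype and 11437, 11231, 10789 and 10834 in SMA vehicle cords and fell by 0.54 ± 0.11 (adjusted p = 0.00257). Mvk (-0.14), Pmvk (-0.14) and Srebf2 itself (-0.09) did not pass. Mvk (-0.28) and Pmvk (-0.24) passed without wildtype array 2.

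The start regions of these genes are shown because the members moved together and the motifs read by SREBP2 and NF-Y are known. The windows run from 250 bases before to 50 after a RefSeq transcript start (GRCm38.p6), 5′ to 3′ on the strand of the gene. Capitals mark the letters CCAAT or, on the other strand, ATTGG, and in Hmgcs1 also the sterol element TCACNCCAC, searched on both strands. Idi1, Msmo1 and Lss are steep falls of the list, and Hmgcs1 is the one gene among those matched whose window holds the sterol element in these letters.
Idi1 (chr13:8885356-8885655, plus strand): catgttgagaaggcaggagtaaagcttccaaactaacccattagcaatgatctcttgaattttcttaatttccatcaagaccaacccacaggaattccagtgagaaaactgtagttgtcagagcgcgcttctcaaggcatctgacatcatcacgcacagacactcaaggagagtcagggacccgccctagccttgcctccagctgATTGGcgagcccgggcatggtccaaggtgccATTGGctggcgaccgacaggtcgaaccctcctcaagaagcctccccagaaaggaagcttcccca
Msmo1 (chr8:64733529-64733828, minus strand): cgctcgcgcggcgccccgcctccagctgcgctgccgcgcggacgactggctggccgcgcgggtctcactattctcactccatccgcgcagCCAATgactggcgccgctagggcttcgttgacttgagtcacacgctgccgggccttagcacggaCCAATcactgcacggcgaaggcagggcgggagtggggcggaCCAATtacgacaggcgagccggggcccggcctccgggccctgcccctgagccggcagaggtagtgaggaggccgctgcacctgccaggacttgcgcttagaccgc
Lss (chr10:76531355-76531654, plus strand): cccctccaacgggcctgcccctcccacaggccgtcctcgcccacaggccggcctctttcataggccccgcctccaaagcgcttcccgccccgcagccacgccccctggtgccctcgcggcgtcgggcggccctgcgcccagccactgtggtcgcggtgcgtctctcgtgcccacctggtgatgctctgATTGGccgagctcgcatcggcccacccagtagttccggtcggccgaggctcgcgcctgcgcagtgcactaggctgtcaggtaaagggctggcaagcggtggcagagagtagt
Hmgcs1 (chr13:119690101-119690400, plus strand): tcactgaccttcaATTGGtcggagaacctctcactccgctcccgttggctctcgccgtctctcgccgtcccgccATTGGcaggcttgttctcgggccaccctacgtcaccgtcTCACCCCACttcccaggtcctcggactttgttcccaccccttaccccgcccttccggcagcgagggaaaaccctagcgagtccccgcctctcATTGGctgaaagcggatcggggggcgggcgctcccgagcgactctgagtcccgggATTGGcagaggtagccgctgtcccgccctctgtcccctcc

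RefSeq entries were found for 15 of the 18 measured genes, some with several starts, which gave 18 windows. A CCAAT box stood in 15 of these windows (83.3%), against 12289 of 32851 windows of all genes (37.4%), and 1 (5.56%) had the sterol element, against 408 (1.24%). Mvk, which passed only without wildtype array 2, held 5 CCAAT matches. Over the 17 windows of compact myelin genes the share with CCAAT was 41.2%, and E-box letters (CANNTG) stood in 52.9% against 72.3% of all windows. The Sox motif AACAAT stood in none of these 17 windows, against 10.7% of all. These are matches of letters and not measured binding.

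Enzymes of the other myelin lipids fell as well. In the list for fatty acids, sphingolipids and galactolipids, 14 of the 22 measured genes fell and 8 did not pass (16 fell without wildtype array 2, and 1 rose without wildtype array 1), with a median difference of -0.68, or -0.78 without wildtype array 2. Ugt8a, which makes galactosylceramide, stood at 16009.8, 12956, 19926 and 19774 in wildtype and 6848, 5656, 2978 and 2192 in SMA vehicle cords, and Gal3st1, which turns it into sulfatide, at 3622, 2472, 4031 and 4029.5 in wildtype and 1297, 1049, 763.3 and 614.6 in SMA vehicle cords. Cers2, the synthase of ceramides with very long chains, fell by 2.16 ± 0.26, Elovl1, which lengthens their acyl chains, fell by 2.45 ± 0.26, and Fa2h, which hydroxylates them, fell by 2.56 ± 0.31. These 5 genes act on one class of lipid, and all but Gal3st1 fell over 4-fold. Scd1, the desaturase of stearate, fell by 1.69 ± 0.19. Fasn (-0.35), Acaca (-0.04) and Srebf1 (0.01), at the base of fatty acid synthesis, did not pass. Fasn (-0.51) passed without wildtype array 2.

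**Figure D2:**
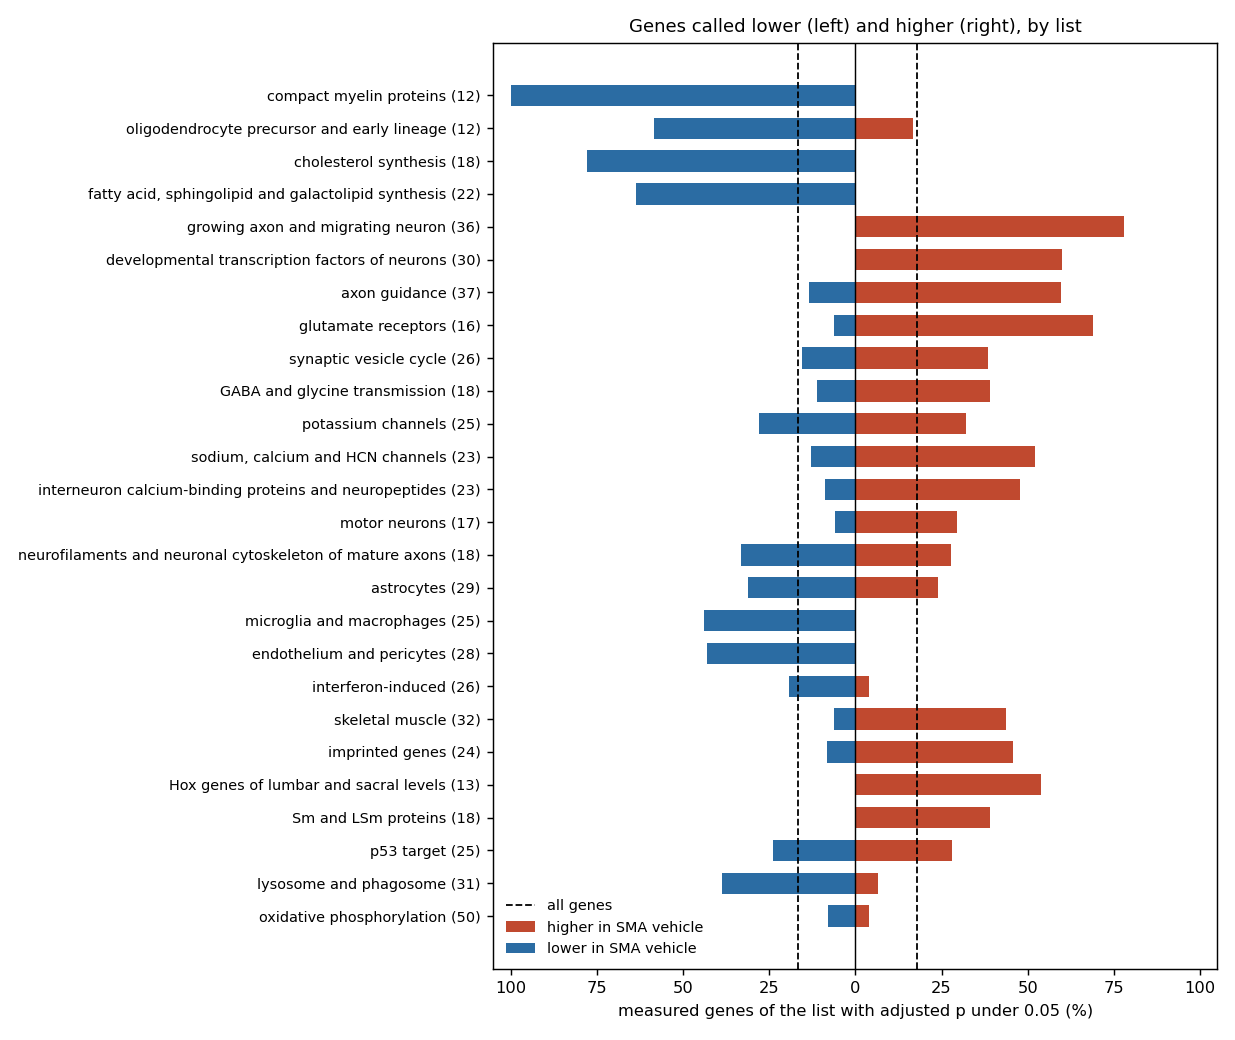
Share of the measured genes of selected lists (number of genes in brackets) that were lower (left, blue) or higher (right, red) in SMA vehicle cords at an adjusted p under 0.05. Dashed lines mark all genes (16.5% lower, 18.0% higher), and the myelin and lipid lists reach far to the left and the lists of growing and developing neurons to the right.

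Genes of growing neurons moved the other way. Young neurons extend axons with proteins of the growth cone and of a dynamic cytoskeleton, and most of these transcripts decline as circuits mature. Of the 36 measured genes 28 rose and 8 did not pass (28 rose without wildtype array 2), with a median difference of 0.85, or 0.82 without wildtype array 2, and 15 rose over 2-fold, against 3.68% of all genes. Dcx, the microtubule protein of migrating neurons, stood at 370.2, 276.2, 356.8 and 365.4 in wildtype and 1308, 1662, 2506 and 3203 in SMA vehicle cords, and Gap43, the growth cone protein, at 2604, 2147, 2554 and 2255 in wildtype and 8265, 8992, 10699.8 and 10395 in SMA vehicle cords. Crmp1, which relays semaphorin signals, stood at 2477, 1430.1, 1814 and 1948 in wildtype and 8828, 9669, 10048 and 10772 in SMA vehicle cords, so each SMA vehicle cord held several times the wildtype level. Nnat, a small membrane protein of developing neurons, rose by 1.99 ± 0.12 (adjusted p = 8.48e-07), Ncam1, a cell adhesion molecule of neurons, rose by 1.68 ± 0.11, and St8sia2, which adds polysialic acid to it, rose by 2.83 ± 0.21. Tuba1a (0.01), Tmsb10 (-0.03) and Map1b (-0.25), also high in young neurons, did not pass. The summed signal of the list was 151303, 124065, 159440.1 and 156235 on the wildtype and 218092, 236002, 249134 and 251443 on the SMA vehicle arrays.

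**Figure D3:**
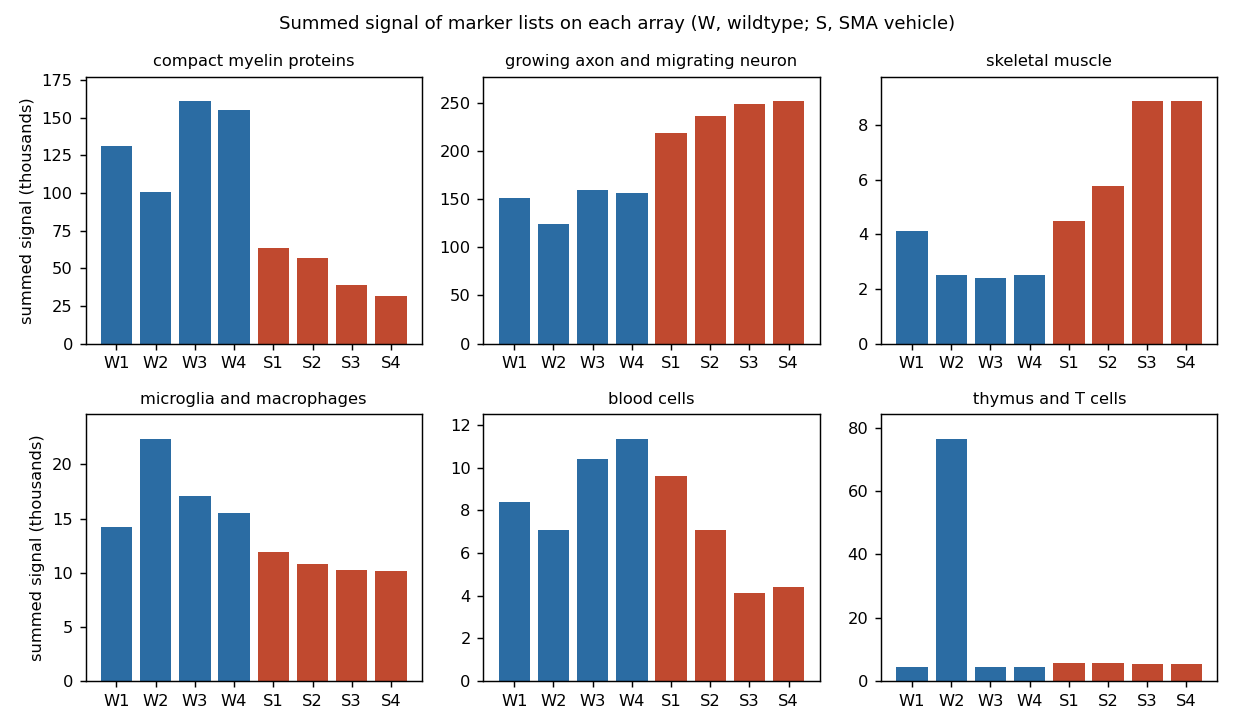
Summed signal (in units of 1000, linear axis from 0) of 6 marker lists on each wildtype (W, blue) and SMA vehicle (S, red) array. The myelin sum is lower and the growing axon sum higher on all 4 SMA vehicle arrays, the muscle sum is highest on SMA vehicle arrays 3 and 4, and the thymus sum is high on wildtype array 2 alone.

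Transcription factors of neuronal development rose with them. In this list, 18 of the 30 measured genes rose and 12 did not pass (21 rose without wildtype array 2, and 1 fell without SMA vehicle array 1), with a median difference of 0.83, or 0.94 without wildtype array 2, and 14 rose over 2-fold. Zic1, a factor of dorsal precursors, stood at 1151, 976.9, 964.7 and 1051 in wildtype and 2798, 3494, 3688 and 3516 in SMA vehicle cords, and Ebf1, of newborn neurons, at 553.2, 378.5, 473.2 and 481.4 in wildtype and 1676, 1694, 1910.2 and 1665 in SMA vehicle cords. Lhx1, a LIM factor of spinal interneurons, was dimmer, at 155.3, 91.2, 103.1 and 108.0 in wildtype and 449.8, 470.9, 568.5 and 626.9 in SMA vehicle cords. The groups did not overlap for any of the 3, and Zic1 rose by 1.68 ± 0.09, Ebf1 rose by 1.86 ± 0.12 and Lhx1 rose by 2.07 ± 0.20. Factors better known from the cortex, Neurod6 (2.30) and Neurod2 (2.08), rose in the cord too, at wildtype signals of at most 125.7. Tfap2b, an AP-2 factor, stood at 54.6, 41.3, 6.7 and 36.3 in wildtype and 209.7, 335.6, 276.7 and 302.9 in SMA vehicle cords and Sox11, which keeps neurons immature, at 151.5, 152.8, 116.6 and 193.2 in wildtype and 320.7, 809.5, 936.6 and 1253 in SMA vehicle cords. Tbr1 (-0.18) and Isl2 (-0.13) did not pass.

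Axon guidance genes followed in part: 22 of the 37 measured genes rose, 5 fell and 10 did not pass (20 rose and 7 fell without wildtype array 2, and 3 fell without wildtype array 3), with a median difference of 0.57, or 0.53 without wildtype array 2. Plxnc1, a semaphorin receptor, stood at 289.4, 322.4, 281.9 and 281.2 in wildtype and 847.2, 774.4, 1061 and 1092 in SMA vehicle cords, and Ntn1, the midline attractant netrin, rose by 1.19 ± 0.12. Those that fell included guidance genes of oligodendrocytes: Sema4d stood at 2347, 1242, 2553 and 2727 in wildtype and 599.0, 489.2, 237.3 and 262.2 in SMA vehicle cords and fell by 2.48 ± 0.30, and Plxnb3 fell by 1.66 ± 0.24. Unc5b, a netrin receptor, fell by 1.98 ± 0.22. The rises and the falls of this list did not belong to separate ligand and receptor classes, since semaphorins and plexins stood on both sides, as with Sema3a (0.84) and Plxna2 (0.99).

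The cytoskeleton of the mature axon was divided. Of the 18 measured genes 5 rose, 6 fell and 7 did not pass (5 rose and 8 fell without wildtype array 2), with a median difference of 0.13, or 0.00 without wildtype array 2. Nefh, the heavy neurofilament that is laid down as large axons thicken, stood at 8288, 5223, 7764 and 8439.9 in wildtype and 2969.5, 3508, 2706 and 2496 in SMA vehicle cords and fell by 1.33 ± 0.15 (adjusted p = 2.76e-05). Its groups did not overlap. Nefl, the light chain, did not pass (-0.18 ± 0.13, adjusted p = 0.35), while Map2, of dendrites, rose by 1.02 ± 0.14. Nefl (-0.33) passed without wildtype array 2. Tubb4a, a tubulin of oligodendrocytes and mature neurons, fell by 0.93 ± 0.19.

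Markers of motor neurons, the cells lost in this disease, changed in both directions, and most did not pass. Of the 17 measured genes 5 rose, 1 fell and 11 did not pass (5 rose and 1 fell without wildtype array 2, 3 rose without SMA vehicle array 4 and 2 fell without wildtype array 3), with a median difference of 0.19, or 0.06 without wildtype array 2. Slc18a3, which loads acetylcholine into vesicles, stood at 754.9, 410.1, 437.4 and 619.7 in wildtype and 556.8, 750.0, 640.0 and 537.2 in SMA vehicle cords and did not pass (0.19 ± 0.17, adjusted p = 0.454). The choline transporter Slc5a7 (-0.14) and the homeobox gene Mnx1 (0.07) did not pass either. Isl1, which specifies motor and sensory neurons, rose by 1.03 ± 0.21, and Lhx3, its partner, rose by 0.74 ± 0.21, a call lost without SMA vehicle array 4. Nefh was the list member that fell. The summed signal of the list was 15252, 9660.2, 12746 and 14643 on the wildtype and 8721, 11414, 9696 and 8776 on the SMA vehicle arrays. The ranges overlapped through wildtype array 2, and without it every SMA vehicle sum was below every wildtype sum. Nefh was the brightest member: without it, a choice made after seeing the values, the sum was 6963, 4438, 4982 and 6203 on the wildtype and 5751, 7906, 6990.0 and 6281 on the SMA vehicle arrays, and these overlapped with and without wildtype array 2.

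Genes of the synapse changed in both directions. For the synaptic vesicle cycle, 10 of the 26 measured genes rose, 4 fell and 12 did not pass (11 rose and 10 fell without wildtype array 2), with a median difference of 0.08, or -0.06 without wildtype array 2. Stx1a, a membrane SNARE, stood at 756.6, 674.4, 644.7 and 706.0 in wildtype and 1963, 2069, 2286 and 1966 in SMA vehicle cords and rose by 1.55 ± 0.08 (adjusted p = 6.75e-07). Its groups did not overlap. The calcium sensors Syt1 and Syt4 rose by 0.99 ± 0.13 and by 1.09 ± 0.13, while Vamp1, a vesicle SNARE of the spinal cord, fell by 0.67 ± 0.14, and its relative Vamp2 rose by 0.69 ± 0.12. Snap25 (-0.17) and Syp (0.25) did not pass. Snap25 (-0.29) passed without wildtype array 2.

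Glutamate receptors were mostly higher: 11 of the 16 measured genes rose, 1 fell and 4 did not pass (8 rose and 1 fell without wildtype array 2, and 7 rose without SMA vehicle array 1 or 4), with a median difference of 0.67, or 0.56 without wildtype array 2. Grik1, a kainate receptor, stood at 180.9, 166.7, 166.9 and 181.1 in wildtype and 430.0, 446.6, 522.2 and 569.4 in SMA vehicle cords and Gria2, the subunit that makes AMPA receptors impermeable to calcium, at 2309, 1526, 2277 and 1855 in wildtype and 3545, 3699, 3984 and 4081 in SMA vehicle cords. Both rose without overlap. Grin2c, a late NMDA receptor subunit, fell (-1.10) at signals of at most 110.9. For GABA and glycine, 7 of the 18 measured genes rose, 2 fell and 9 did not pass (6 rose and 4 fell without wildtype array 2, 3 rose without SMA vehicle array 1 or 3, 4 rose without SMA vehicle array 2 or 4 and 1 fell without wildtype array 1, 3 or 4 or SMA vehicle array 4), with a median difference of 0.17, or 0.07 without wildtype array 2. Gad1, which makes GABA, rose by 0.46 ± 0.12, and the receptor subunit Gabra3 rose by 1.24 ± 0.21. Slc12a2, a chloride importer, stood at 4541, 2986, 5458 and 4985 in wildtype and 2093, 1759, 1295 and 1183 in SMA vehicle cords and fell by 1.50 ± 0.19, and the chloride exporter Slc12a5 did not pass (0.24 ± 0.12, adjusted p = 0.172).

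Ion channels changed in both directions. For potassium channels, 8 of the 25 measured genes rose, 7 fell and 10 did not pass (9 rose and 9 fell without wildtype array 2), with a median difference of 0.16, or 0.03 without wildtype array 2. Kcna1, a channel placed beside the nodes of myelinated axons, stood at 1944, 1354, 1618 and 2330.2 in wildtype and 344.1, 482.6, 324.9 and 309.8 in SMA vehicle cords and fell by 2.25 ± 0.24 (adjusted p = 2.15e-05), and Kcnab2, its subunit, fell by 1.59 ± 0.13. Kcnj10, the potassium channel of glia, stood at 4582, 2768, 4774 and 5091 in wildtype and 1375, 1427, 904.5 and 687.3 in SMA vehicle cords and fell by 1.98 ± 0.24. None of these overlapped between groups. Kcnmb4 (1.38) and Kcnip1 (1.14), subunits of neuronal channels, rose. Among sodium, calcium and HCN channels, 12 of the 23 measured genes rose, 3 fell and 8 did not pass (13 rose and 4 fell without wildtype array 2), with a median difference of 0.53, or 0.48 without wildtype array 2. Hcn3, a channel opened by hyperpolarization, stood at 110.8, 61.3, 79.1 and 48.2 in wildtype and 425.3, 379.9, 624.9 and 686.6 in SMA vehicle cords. Scn1a, a sodium channel that appears as neurons mature, fell by 0.92 ± 0.13, while Scn2a, of young axons, rose by 0.84 ± 0.11, and Cacna1h, a channel of low threshold, rose by 1.39 ± 0.15.

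Interneuron peptides and calcium-binding proteins changed in both directions. Of the 23 measured genes 11 rose, 2 fell and 10 did not pass (11 rose and 2 fell without wildtype array 2), with a median difference of 0.39, or 0.36 without wildtype array 2. Pvalb, parvalbumin of fast-firing interneurons and proprioceptive neurons, stood at 1164, 621.8, 1419.7 and 1538 in wildtype and 228.7, 165.5, 156.4 and 144.8 in SMA vehicle cords and fell by 2.60 ± 0.28 (adjusted p = 2.47e-05). Tac2, a tachykinin, stood at 1271, 880.2, 1666 and 1755 in wildtype and 600.2, 362.6, 211.5 and 221.0 in SMA vehicle cords and fell by 2.02 ± 0.30. Both were lower on every SMA vehicle array than on any wildtype array. The peptide genes Npy (1.34), Cartpt (1.33), Pdyn (1.27) and Gal (1.09) rose, and Penk (0.08), Calb1 (0.32) and Calb2 (-0.01) did not pass.

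Astrocyte genes changed in both directions, and without wildtype array 2 falls outnumbered rises. Of the 29 measured genes 7 rose, 9 fell and 13 did not pass (6 rose and 16 fell without wildtype array 2), with a median difference of -0.14, or -0.26 without wildtype array 2. S100b, a calcium-binding protein, stood at 6785, 4799, 8523 and 7917 in wildtype and 2394, 2729, 1729 and 1608 in SMA vehicle cords and fell by 1.72 ± 0.19, and Aqp4, the water channel of end-feet, fell by 0.67 ± 0.13. Slc1a2, the main glutamate transporter of mature astrocytes, stood at 232.6, 113.0, 212.3 and 253.1 in wildtype and 104.6, 99.2, 63.9 and 55.7 in SMA vehicle cords and fell by 1.16 ± 0.25 (adjusted p = 0.00338), while Slc1a3, its relative in younger astrocytes, rose by 0.83 ± 0.17. Fabp7, of radial glia, rose by 0.73 ± 0.15. Gja1 (-0.12), Aldoc (-0.08) and Apoe (0.02) did not pass. Gja1 (-0.23) and Aldoc (-0.21) passed without wildtype array 2. The summed signal of the list was lowest on wildtype array 2, at 105903, against 140348, 155471 and 151289 on the other wildtype arrays and 121579.7, 126094, 111957 and 114363 on the SMA vehicle arrays. Without wildtype array 2 every SMA vehicle sum was below every wildtype sum.

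Antioxidant genes under NRF2 fell more often than they rose: 4 of the 27 measured genes rose, 13 fell and 10 did not pass (6 rose and 13 fell without wildtype array 2, and 2 rose without wildtype array 3 or 4 or SMA vehicle array 2), with a median difference of -0.30, or -0.30 without wildtype array 2. Nfe2l2, which encodes NRF2, stood at 677.8, 937.2, 804.5 and 825.7 in wildtype and 281.2, 287.5, 193.6 and 240.5 in SMA vehicle cords, and its groups did not overlap. Gss, the glutathione synthetase, fell by 1.22 ± 0.16, and Srxn1, sulfiredoxin, fell by 0.77 ± 0.11. Gstm1, a glutathione transferase, rose by 1.35 ± 0.15, and the standard target Hmox1 did not pass (0.42 ± 0.20, adjusted p = 0.144).

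Some of the microglia and macrophage genes were lower. Of the 25 measured genes 11 fell and 14 did not pass (15 fell without wildtype array 2), with a median difference of -0.55, or -0.48 without wildtype array 2, and 1 rose at an unadjusted p under 0.05. Gpr34, a receptor of microglia, stood at 181.4, 199.9, 315.4 and 237.7 in wildtype and 123.8, 114.0, 102.8 and 67.2 in SMA vehicle cords and fell by 1.08 ± 0.19. Tmem119 (-0.83), P2ry12 (-0.59) and Csf1r (-0.42), markers of resting microglia and the receptor they depend on, fell. Trem2 (0.28), Cx3cr1 (0.13) and Aif1 (0.04) did not pass. The summed signal was 14173, 22375, 17072 and 15525 on the wildtype and 11893, 10776, 10239 and 10177 on the SMA vehicle arrays, with the top value on the wildtype array that carried thymus transcripts. For complement, 2 of the 14 measured genes fell and 12 did not pass (4 fell without wildtype array 2, 1 fell without wildtype array 3 or SMA vehicle array 1, 3 or 4 and 4 fell without wildtype array 1), and those that fell were Cd59a (-0.58) and Itgam (-0.55). The call of Itgam was lost without wildtype array 3 or 4, SMA vehicle array 1, 3 or 4, or any 1 of the ceftriaxone arrays that share the fit. That of P2ry12 was lost without wildtype array 1, 3 or 4 or SMA vehicle array 3 or 4.

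Genes of secreted proteins known from macrophages were among the 20 largest falls. Which cells of the cord held these transcripts was not tested. Retnla, a secreted resistin-like protein, stood at 457.6, 749.2, 516.1 and 398.7 in wildtype and 13.5, 4.5, 4.8 and 6.7 in SMA vehicle cords and fell by 4.52 ± 0.26 (adjusted p = 6.75e-07). Chil3, a chitinase-like protein, stood at 533.4, 793.3, 612.5 and 527.8 in wildtype and 115.4, 92.3, 25.1 and 31.9 in SMA vehicle cords, and Il23a, a subunit of interleukin-23, at 203.9, 157.0, 187.1 and 280.8 in wildtype and 30.7, 15.9, 7.9 and 7.2 in SMA vehicle cords. In each of the 3, every SMA vehicle array was below every wildtype array, which was a condition for the 20 largest falls. The differences were -3.10 for Chil3 and -2.86 for Il23a. Wildtype array 2 was the highest of its group for Retnla and Chil3 and the lowest for Il23a.

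Interferon-induced genes differed among the wildtype cords themselves. Of the 26 measured genes 1 rose, 5 fell and 20 did not pass (2 rose and 3 fell without wildtype array 2, 3 fell without SMA vehicle array 1, 3 or 4, 11 fell without wildtype array 1 and 12 fell without wildtype array 4), with a median difference of -0.82, or -0.57 without wildtype array 2. Ifit1, which binds foreign RNA, stood at 21.6, 119.4, 753.1 and 43.2 in wildtype and 14.4, 7.1, 26.9 and 12.6 in SMA vehicle cords and fell by 2.02 ± 0.71 (adjusted p = 0.0478), and Irf7, the factor that amplifies the response, at 72.8, 205.9, 635.5 and 79.2 in wildtype and 44.4, 65.6, 64.5 and 35.6 in SMA vehicle cords and fell by 1.47 ± 0.50 (adjusted p = 0.0403). Wildtype array 3 was the highest for both, and without wildtype array 2 neither passed (adjusted p = 0.0646 and 0.0619). The calls of Ifit1 and Irf7 held without wildtype array 1 or 4 and were lost when any 1 of the other 10 arrays of the fit was left out. Usp18, which limits interferon signalling, and Rtp4, a receptor chaperone, are named because their values were seen to stand out: Usp18 stood at 27.1, 258.8, 1850.5 and 33.2 in wildtype and 21.9, 21.9, 38.0 and 24.0 in SMA vehicle cords, and Rtp4 at 67.1, 376.8, 1684 and 136.8 in wildtype and 89.6, 107.7, 140.4 and 82.9 in SMA vehicle cords. Neither passed (adjusted p = 0.102 and 0.161), and for both genes wildtype arrays 1 and 4 lay near the SMA vehicle arrays. Both passed without wildtype array 1. Stat2, the signalling subunit, differed with less spread: it fell by 1.06 ± 0.16 (adjusted p = 0.000307), with a difference of -1.05 (adjusted p = 0.000434) without wildtype array 2. Ifitm2 rose by 0.61 ± 0.13.

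**Figure D4:**
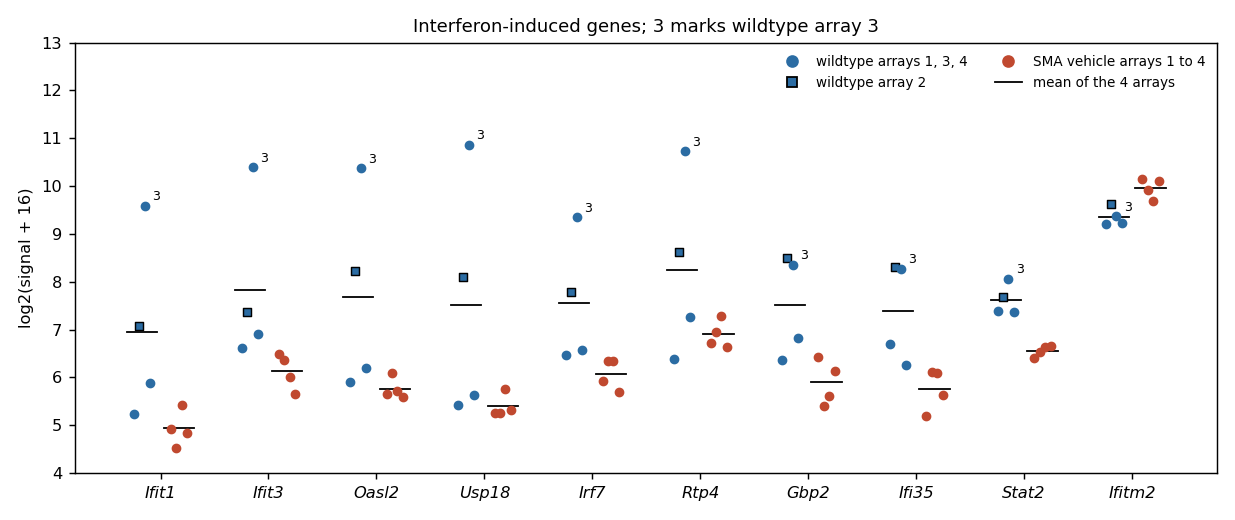
Signal of 10 interferon-induced genes on each array, as log2(signal + 16). Blue marks wildtype, red SMA vehicle, the square wildtype array 2, the digit wildtype array 3 and bars the mean of 4 arrays. Wildtype array 3 is far above wildtype arrays 1 and 4 for Ifit1, Ifit3, Oasl2, Usp18, Irf7 and Rtp4. Stat2 and Ifitm2 separate the groups, and Irf7 does so narrowly.

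Some vessel genes were lower. For endothelium and pericytes, 12 of the 28 measured genes fell and 16 did not pass (16 fell without wildtype array 2), with a median difference of -0.42, or -0.48 without wildtype array 2. Rgs5, of pericytes, stood at 3246, 2654, 3590.4 and 3498 in wildtype and 1722, 1670.5, 1241 and 1303 in SMA vehicle cords and fell by 1.13 ± 0.15 (adjusted p = 0.000107). Flt1, a VEGF receptor, fell by 0.64 ± 0.13, Tek, the angiopoietin receptor, fell by 0.76 ± 0.17, and Slc2a1, the glucose transporter of the barrier, fell by 0.55 ± 0.14. Pecam1 (-0.37), Cdh5 (-0.43) and Vwf (-0.41) did not pass, although Cdh5 did without SMA vehicle array 1. Signals of the list summed to 31419, 28404, 31078 and 30834 on the wildtype and 25221, 22857, 21571 and 22014 on the SMA vehicle arrays, which did not overlap. For collagens and matrix, 3 of the 35 measured genes rose, 6 fell and 26 did not pass (5 rose and 9 fell without wildtype array 2, and 3 fell without wildtype array 3 or SMA vehicle array 2 or 3), with a median difference of -0.21, or -0.14 without wildtype array 2. Fbln1, a fibulin, rose by 0.81 ± 0.07 and Sparc, made by astrocytes and vessels, fell by 0.66 ± 0.15.

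Some skeletal muscle transcripts were higher in the SMA vehicle cords. Of the 32 measured genes 14 rose, 2 fell and 16 did not pass (15 rose and 1 fell without wildtype array 2, 8 rose without SMA vehicle array 3 or 4, 9 rose without wildtype array 3 and 1 fell without SMA vehicle array 1, 2, 3 or 4), with a median difference of 0.54, or 0.63 without wildtype array 2. Acta1, skeletal actin, stood at 721.5, 234.8, 260.6 and 283.6 in wildtype and 1139.9, 2045, 3430.2 and 2697 in SMA vehicle cords, and Myh3, the embryonic myosin, at 3.8, 7.4, 4.4 and 3.4 in wildtype and 25.3, 29.9, 98.5 and 56.9 in SMA vehicle cords. Myh8, the perinatal myosin, stood at 22.5, 11.0, 21.8 and 22.9 in wildtype and 120.0, 95.9, 198.0 and 477.5 in SMA vehicle cords. The SMA vehicle arrays lay above the wildtype arrays for all 3, and the highest wildtype value of Acta1 was that of array 1. The adult fast and slow myosins Myh4 (-0.51), Myh1 (-0.69) and Myh7 (-0.23) did not pass. Tnni1, slow troponin I, fell by 1.60 ± 0.37. The summed signal of the list was 4127, 2505, 2390.0 and 2519 on the wildtype and 4477, 5764, 8881 and 8876 on the SMA vehicle arrays, and whether muscle left on the cord was part of this was not tested.

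Other tissues that a dissection can carry were checked by their lists. Of 12 blood cell genes Car2, also an oligodendrocyte gene, was the one that fell (-0.94), and 3 fell without SMA vehicle array 1. The neutrophil genes S100a8 (-0.43), Ngp (-0.76) and Camp (-0.97) did not pass, the last pair being the others that fell without SMA vehicle array 1, and the summed blood signal was 8387, 7057, 10395 and 11359 on the wildtype and 9590.4, 7085, 4146 and 4408 on the SMA vehicle arrays. For meninges and choroid plexus, 4 of the 16 measured genes rose, 2 fell and 10 did not pass (4 rose and 2 fell without wildtype array 2), with a median difference of 0.14, or 0.11 without wildtype array 2. Ttr, of choroid plexus, stood at 45.4, 10.2, 11.7 and 17.8 in wildtype and 38.3, 46.9, 146.8 and 351.6 in SMA vehicle cords, so the groups overlapped and its rise (1.77) was largest on SMA vehicle arrays 3 and 4. It no longer passed without SMA vehicle array 3 or 4 or wildtype array 3 or 4. Signals of this list summed to 7252, 7019, 8171 and 7014 on the wildtype and 10150.0, 10227, 9448 and 9240.3 on the SMA vehicle arrays, higher on each of the latter. For ependyma and cilia, 2 of the 6 measured genes rose and 4 did not pass (2 rose without wildtype array 2), namely Rsph1 (0.86) and Tekt1 (0.75). For Schwann cells and sensory ganglia, 2 of the 9 measured genes rose, 2 fell and 5 did not pass (2 rose and 2 fell without wildtype array 2, and 1 fell without wildtype array 3 or 4 or SMA vehicle array 2 or 3). Tac1, the precursor of substance P, rose by 0.84 ± 0.16, and Ncmap, a myelin protein of peripheral nerve, fell by 1.50 ± 0.46, a call lost without any 1 of those 4 arrays. The sum of that list was 10936, 7435, 10494 and 10586 on the wildtype and 6814, 6670.5, 6633 and 6084 on the SMA vehicle arrays, lower on each of the latter. Nefh belongs to this list too, at 8288, 5223, 7764 and 8439.9 in wildtype and 2969.5, 3508, 2706 and 2496 in SMA vehicle cords. Without Nefh, a choice made after seeing the values, the sum was higher on each SMA vehicle array than on any wildtype array. The part of such tissue in the other results was not tested. Among the 22 thymus and T cell genes limma called 0, with 1 lower at an unadjusted p under 0.05. Their median difference of -1.53 became -0.21 without wildtype array 2, when 3 rose, and 1 fell without wildtype array 1.

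Cell cycle genes depended on wildtype array 2. Of the 37 measured genes 1 rose and 36 did not pass (10 rose without wildtype array 2), with a median difference of -0.26, or 0.30 without wildtype array 2. Mki67, a marker of dividing cells, stood at 290.5, 2521, 291.2 and 232.1 in wildtype and 385.9, 315.6, 241.7 and 241.1 in SMA vehicle cords, and its difference of -0.69 ± 0.63 (adjusted p = 0.456) became 0.10 (adjusted p = 0.854) without that array. The member that rose with all arrays was Stmn1, a tubulin-binding protein also found in young neurons (0.67).

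**Figure D5:**
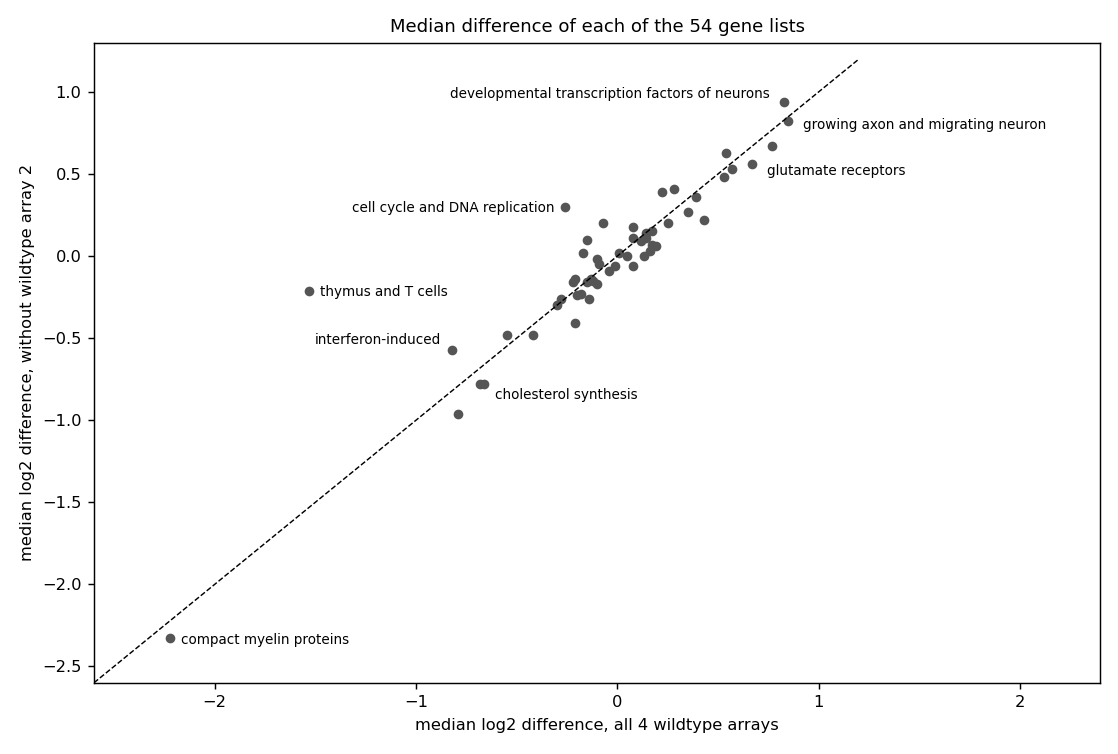
Median difference (log2) of each of the 54 gene lists with all 4 wildtype arrays (horizontal axis) and without wildtype array 2 (vertical axis), 1 point per list, and the dashed line marks equal values. The thymus list moves from -1.53 to -0.21 and the cell cycle list from -0.26 to 0.30, while compact myelin stays near -2.22.

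Targets of p53 changed in both directions: 7 of the 25 measured genes rose, 6 fell and 12 did not pass (8 rose and 7 fell without wildtype array 2), with a median difference of -0.15, or 0.10 without wildtype array 2. With all arrays 28.0% of the list rose and 24.0% fell, against 18.0% and 16.5% of all genes. Cdkn1a, the cell cycle inhibitor p21, stood at 362.4, 358.9, 443.3 and 474.3 in wildtype and 1855, 2039.7, 1688 and 1743 in SMA vehicle cords and rose by 2.12 ± 0.13 (adjusted p = 1.12e-06). Bbc3, the death gene Puma, stood at 176.8, 270.8, 170.8 and 115.5 in wildtype and 562.3, 443.6, 407.3 and 473.1 in SMA vehicle cords and rose by 1.34 ± 0.20. Neither overlapped between groups. Plk2, a kinase of neurons and stressed cells, rose by 1.03 ± 0.09, Zmat3, an RNA-binding target of p53, fell (adjusted p = 4.41e-05), and Mdm2, the ligase that degrades p53, fell by 0.43 ± 0.10. Ccng1 (-0.15) and Pmaip1 (0.69) did not pass. In the Bcl2 family and caspases, 4 of the 25 measured genes rose, 6 fell and 15 did not pass (7 rose and 7 fell without wildtype array 2). Birc2, an inhibitor of apoptosis, fell by 1.32 ± 0.11, and Casp9, an initiator caspase, rose by 0.79 ± 0.12.

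Stress chaperones changed in both directions too: 22.2% rose and 25.9% fell, against 18.0% and 16.5% of all genes. Of the 27 measured genes 6 rose, 7 fell and 14 did not pass (7 rose and 9 fell without wildtype array 2, and 3 rose without wildtype array 3 or 4 or SMA vehicle array 3 or 4), with a median difference of -0.09, or -0.05 without wildtype array 2. The inducible Hspa1b stood at 427.2, 423.6, 329.7 and 339.0 in wildtype and 1367, 1597, 1967 and 1937 in SMA vehicle cords and rose by 2.12 ± 0.14 (adjusted p = 1.29e-06), and Hspa1a, its near-identical copy, rose by 1.23 ± 0.17. The probe sets of this pair may read the same transcripts. Cryab, a small chaperone abundant in oligodendrocytes, stood at 3813, 2802, 6144 and 5149.6 in wildtype and 686.7, 377.5, 284.6 and 302.9 in SMA vehicle cords. Hspa1b and Cryab moved in opposite directions by over 4-fold each, and Hsp90aa1 (0.02) and Hspa8 (-0.13) did not pass. For the unfolded protein and integrated stress responses, 3 of the 36 measured genes rose, 12 fell and 21 did not pass (4 rose and 17 fell without wildtype array 2), with a median difference of -0.18, or -0.23 without wildtype array 2. Manf, a chaperone of the endoplasmic reticulum, fell by 0.52 ± 0.06, Sdf2l1, another, fell by 1.15 ± 0.13, and the phosphatase subunit Ppp1r15a rose by 0.75 ± 0.11. The usual markers of that response, Ddit3 (-0.26), Hspa5 (-0.17) and Atf4 (0.14), did not pass. Ddit3 (-0.35) and Hspa5 (-0.25) passed without wildtype array 2.

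Genes of hormonal and metabolic state were mixed. In the list for glucocorticoids and fasting, 6 of the 24 measured genes rose, 5 fell and 13 did not pass (7 rose and 5 fell without wildtype array 2, 3 fell without wildtype array 1 or 4 or SMA vehicle array 1, 3 or 4). Nr3c1, the glucocorticoid receptor, stood at 1029, 1395, 896.2 and 979.2 in wildtype and 632.2, 533.8, 460.4 and 478.1 in SMA vehicle cords and fell (adjusted p = 0.000141), and Hsd11b1, which regenerates active hormone, fell by 1.47 ± 0.14. The direct targets Fkbp5 (0.16), Per1 (-0.03) and Dusp1 (-0.05) did not pass. Fkbp5 (0.62) passed without wildtype array 2. For the circadian clock, 4 of the 20 measured genes rose, 7 fell and 9 did not pass (5 rose and 7 fell without wildtype array 2, 4 fell without wildtype array 1, 3 or 4 or SMA vehicle array 3 or 4). Dbp, an output of the clock, fell by 1.11 ± 0.22 and Nr1d1, a repressor within it, rose by 1.13 ± 0.20, while Arntl (0.01) and Per2 (0.50) did not pass. The time of day at collection is not in the labels.

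For glycolysis and glucose uptake, 6 of the 28 measured genes rose, 9 fell and 13 did not pass (7 rose and 14 fell without wildtype array 2). Arrdc4, an arrestin that responds to glucose, stood at 107.3, 125.7, 100.2 and 112.3 in wildtype and 594.5, 613.3, 633.6 and 674.6 in SMA vehicle cords and rose by 2.34 ± 0.13 (adjusted p = 6.75e-07). All 4 SMA vehicle signals were close to each other. Its relative Txnip did not pass (1.11 ± 0.43, adjusted p = 0.067). Txnip (1.68) passed without wildtype array 2. Slc16a1, the transporter that passes lactate from glia to axons, stood at 5858, 5216, 5482 and 5546 in wildtype and 2985, 2643, 2138 and 1869 in SMA vehicle cords and fell by 1.21 ± 0.13. For oxidative phosphorylation, 2 of the 50 measured genes rose, 4 fell and 44 did not pass (2 rose and 28 fell without wildtype array 2, 1 rose without wildtype array 3 or SMA vehicle array 2, 3 or 4 and 2 fell without wildtype array 3 or 4 or SMA vehicle array 4), with a median difference of -0.10, or -0.17 without wildtype array 2. The largest change of that list was Ndufa2, a subunit of complex I, at -0.45.

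Iron genes were lower in part: 6 of the 15 measured genes fell and 9 did not pass (5 fell without wildtype array 2), with a median difference of -0.15, or -0.16 without wildtype array 2. Tfrc, the transferrin receptor, stood at 3188, 3459.5, 3773 and 3637 in wildtype and 2090.4, 1988, 1594 and 1579.9 in SMA vehicle cords and fell by 0.96 ± 0.12 (adjusted p = 7.23e-05), and Fth1, the ferritin heavy chain, fell by 0.61 ± 0.11. Myelinating cells are rich in iron, and the groups did not overlap for either gene. Among lysosomal genes, 2 of the 31 measured genes rose, 12 fell and 17 did not pass (2 rose and 17 fell without wildtype array 2, and 1 rose without SMA vehicle array 1 or 4), with a median difference of -0.20, or -0.24 without wildtype array 2. Npc1 and Npc2 export cholesterol from lysosomes. Npc1 fell by 1.37 ± 0.14, Npc2 differed by -1.10 (adjusted p = 2.17e-05), and the protease Ctsl fell by 0.84 ± 0.12. Galc (-0.08) and Arsa (0.12), which break down the myelin lipids galactosylceramide and sulfatide, did not pass. For cytosolic ribosomal proteins, 5 of the 39 measured genes rose and 34 did not pass (14 rose without wildtype array 2, 2 rose without wildtype array 3 or 4 or SMA vehicle array 2, 3 or 4 and 1 rose without wildtype array 1). For proteasome subunits, 3 of the 31 measured genes rose, 1 fell and 27 did not pass (5 rose and 2 fell without wildtype array 2), with differences of at most 0.35 in size among those that passed.

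Imprinted genes, which are active from the copy of a single parent and are often high in growing tissue, were higher in many cases. Of the 24 measured genes 11 rose, 2 fell and 11 did not pass (11 rose and 5 fell without wildtype array 2), with a median difference of 0.35, or 0.27 without wildtype array 2, and 8 rose over 2-fold against 3.68% of all genes. Meg3, a maternally active RNA, stood at 402.7, 466.8, 335.3 and 437.2 in wildtype and 1296, 1752, 3021 and 3293 in SMA vehicle cords by its probe set of largest difference, and Mkrn3, a paternally active ubiquitin ligase, at 412.7, 293.2, 338.8 and 255.7 in wildtype and 1325, 1253, 1167 and 1122 in SMA vehicle cords. Plagl1, a zinc finger factor, rose by 1.31 ± 0.13, and Dlk1, a Notch-like ligand, rose by 1.13 ± 0.13. Members of both parental origins rose, and Peg3 (-0.05), Grb10 (0.02) and Cdkn1c (-0.27) did not pass. Peg3 (-0.21) and Cdkn1c (-0.41) passed without wildtype array 2.

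In the insulin-like growth factor axis, 7 of the 22 measured genes rose, 3 fell and 12 did not pass (8 rose and 2 fell without wildtype array 2), and at most 1 fell when any 1 of the other 7 arrays was left out. Igf1 stood at 330.9, 398.2, 318.3 and 231.3 in wildtype and 861.2, 895.1, 1028 and 1004 in SMA vehicle cords and rose by 1.54 ± 0.16 (adjusted p = 1.71e-05), Igf2 rose by 1.05 ± 0.20 and the binding protein Igfbp5 rose by 1.72 ± 0.21. The receptor Igf1r did not pass (0.32 ± 0.13, adjusted p = 0.0749) except without SMA vehicle array 2. Among neurotrophic factors and receptors, 5 of the 24 measured genes rose, 6 fell and 13 did not pass (5 rose and 7 fell without wildtype array 2, and 3 fell without wildtype array 1 or SMA vehicle array 4). Gfra2, the neurturin receptor, stood at 104.9, 66.3, 42.5 and 64.4 in wildtype and 324.0, 310.4, 406.2 and 399.1 in SMA vehicle cords, and Ngfr, the shared neurotrophin receptor, rose by 1.36 ± 0.16. The other genes that rose were the receptors Ntrk3 (0.74) and Ret (0.60) and the ligand Bdnf (0.64), and the ligand Fgf1 fell by 1.49 ± 0.21.

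Thyroid hormone drives the timing of myelination, and its genes were divided: 5 of the 16 measured genes rose, 6 fell and 5 did not pass (5 rose and 6 fell without wildtype array 2). Among targets induced by the hormone, Hr, the corepressor hairless, stood at 229.4, 144.2, 255.7 and 256.0 in wildtype and 78.2, 72.3, 56.1 and 54.3 in SMA vehicle cords, and Hr (-1.53), Klf9 (-1.19) and Thrsp (-1.97) fell. Dio2, which makes the active hormone, fell by 1.14 ± 0.22, and Crym, which binds it in the cytosol, rose by 1.43 ± 0.20. The receptors Thra and Thrb differed by 0.47 (adjusted p = 0.00454) and -0.22 (adjusted p = 0.42).

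Hox genes mark the level of the cord. Among those of cervical and thoracic levels, 5 of the 17 measured genes rose, 1 fell and 11 did not pass (4 rose and 1 fell without wildtype array 2), with a median difference of 0.43, or 0.22 without wildtype array 2. The call of the gene that fell was lost without wildtype array 1 or SMA vehicle array 3 or 4. Among those of lumbar and sacral levels, 7 of the 13 measured genes rose and 6 did not pass (7 rose without wildtype array 2), with a median difference of 0.77, or 0.67 without wildtype array 2. Hoxd10, of lumbar cord, stood at 590.3, 768.4, 456.7 and 386.4 in wildtype and 1538, 2411, 1968 and 1839.6 in SMA vehicle cords and rose by 1.82 ± 0.21 (adjusted p = 3.48e-05), and Hoxa10 rose by 1.40 ± 0.12. The groups did not overlap for either. Hoxb3, of the cervical end, rose by 1.20 ± 0.15 too, so members of both ends rose. Which levels each sample held is not settled by the labels, and its part in these values was not tested.

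Chromatin regulators and immediate early genes complete the lists. For chromatin, 7 of the 26 measured genes rose, 4 fell and 15 did not pass (12 rose and 8 fell without wildtype array 2, 4 rose without SMA vehicle array 3 or 4 and 3 rose without wildtype array 3 or 4). Hdac6, a deacetylase of tubulin, stood at 719.5, 527.9, 719.7 and 708.0 in wildtype and 1497, 1540.2, 1833 and 1731 in SMA vehicle cords and rose by 1.29 ± 0.11 (adjusted p = 5.69e-06). For immediate early genes, 1 of the 22 measured genes rose, 4 fell and 17 did not pass (1 rose and 5 fell without wildtype array 2, and 2 rose without wildtype array 3 or 4). Arc, a synaptic gene switched on by activity, fell by 1.95 ± 0.32, Egr1, a factor of the same kind, fell by 1.05 ± 0.17, and Fos did not pass (-0.35 ± 0.19, adjusted p = 0.196). Fos (-0.54) passed without wildtype array 2.

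Probe sets of 1 gene did not always move together. Of 4956 genes with several probe sets, 1354 had 2 or more that passed. In 1302 of these all moved the same way, and in 52 they moved both ways. Gnao1, a G protein subunit of neurons, had probe sets at 0.95, -1.83 and -0.56, and Tln1, talin, had them at 0.83 and -1.27. These examples were chosen after their values were seen. Ap2a2, a subunit of the clathrin adaptor and among the 20 largest rises at 2.31, had its other probe sets between 0.44 and 1.16.

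The SMA vehicle cords were not all equally far from wildtype. Of the 767 probe sets that rose over 2-fold, SMA vehicle array 4 was the highest of its group in 387 (50.5%) and array 3 in 266 (34.7%), against 54 and 60 for arrays 1 and 2. Of the 737 that fell over 2-fold, array 4 was the lowest in 357 (48.4%) and array 3 in 259 (35.1%). Sox11 is an example among the rises, and Mog among the falls. Xist was high on SMA vehicle arrays 1 and 4, so arrays 3 and 4 did not share it. The labels give no batch, litter or weight that could be set beside this order.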

How the data were processed

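RNA of 12 mouse spinal cords was measured on 1-colour Affymetrix arrays, of which 8 are compared here. The deposited values are signal intensities made with MAS5, per the submitters' processing notes, with probe sets named through the platform annotation. The genome build was not given in the sources used here. From the 22690 probe sets 64 controls were left out, and log2(intensity + 16) was computed. Of the other 22626, 20380 had 1 gene symbol, 691 had several and 1555 had none. limma 3.58.1 in R 4.3.3 was fitted over all 12 arrays with 1 mean per group, including the 4 ceftriaxone-treated SMA mice that only add to the estimate of spread, with eBayes (intensity trend, 9 degrees of freedom left over) and Benjamini-Hochberg adjustment over all 22626. Nothing in the labels beyond the number of mice says that samples were prepared separately, so p-values measure the spread between these samples. Gene lists use the brightest probe set of each gene. There were 54 lists, signals were summed for only some of them, and no set test was run.

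The comparison, the lists and the genes were chosen with earlier results of these data known. Named were Smn1, the 20 largest rises and falls that passed with and without wildtype array 2, did not overlap and reached a mean signal of 200, in each list up to 5 members of smallest p and up to 3 defining members that did not pass, and genes of the marker lists by their signals. Other genes that passed were named after their values were seen, to give a step of a pathway or a neighbour of Smn1 (Bdnf, Cers2, Dbp, Dio2, Enc1, Fa2h, Gnao1, Grin2c, Hmgcs1, Ifit1, Kcnj10, Lhx1, Mdm2, Neurod2, Nln, Nova1, Pdyn, Plxna2, Plxnb3, Ptbp2, Scn1a, Scn2a, Sema3a, Serf1, Tac2, Thra, Tln1). Alternatives were the offset, scaling, a filter on dim probe sets, weights, the arrays in the fit, a replicate block, Xist and the Gapdh ratio as covariates, and leaving out each array. The fit was tested on simulated data, with 3 false calls among 22626. Promoter windows are RefSeq's, and a match of letters is a description only.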

Additional observations from a re-analysis of the deposited data

Results flagged for a closer look

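For each list sum and each gene named here, the 4 arrays of each group were checked for an array far from the others: the gap of the highest or lowest array to its nearest neighbour, as a share of the range of the group and above Dixon's 95% critical value for 4 samples. Chance flags about 1 in 20 groups. Of 602 groups tested 48 were above it, and in 31 of these the array that stood apart was wildtype array 2. Groups near 0, such as Smn1 in SMA vehicle cords, are included.

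Wildtype array 2 was far above the other wildtype arrays for 9 of them, with shares of 0.997 for the summed signal of thymus and T cells, 0.872 for Ctsl, 0.894 for Fkbp5, 0.835 for Mbnl1, 0.908 for Mki67, 0.888 for Snrpa1, 0.873 for Snrpb, 0.850 for Snrpe and 0.979 for Txnip. Its signal was 2520.7 for Mki67 and 2391.0 for Txnip, and its thymus sum of 76472 gave the largest share. Wildtype array 2 was far below the other wildtype arrays for 22 of them, with shares of 0.874 for the summed signal of Schwann cells and sensory ganglia, 0.944 for the summed signal of synaptic vesicle cycle, 0.855 for Cldn11, 0.873 for Dcx, 0.853 for Ddit3, 0.838 and 0.876 for the probe sets of Gjb1, 0.846 for Gpd1, 0.837 for Gstm1, 0.947 for Hdac6, 0.918 for Mvk, 0.921 for Myh8, 0.936 for P2ry12, 0.880 for Peg3, 0.939 for Penk, 0.861 for Ptprz1, 0.834 for Rab7b, 0.860 for Slc45a3, 0.950 for Srxn1, 0.869 for Thrsp, 0.843 for Tubb4a and 0.836 for Vamp1. Results without this array stand beside each list in the main text. The part of thymus RNA in the low values of other genes on this array was not tested.

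Wildtype array 1 stood above its group with shares of 0.926 for the summed signal of skeletal muscle, 0.835 for Acta1 and 0.839 for Rac3. Wildtype array 3 stood above its group with shares of 0.891 for Ndufa2 and 0.906 for Xist. Wildtype array 3 stood below its group with shares of 0.872 for Atf4, 0.883 for Eif2s3y, 0.880 for Rbfox2 and 0.874 for Sdf2l1. SMA vehicle array 2 stood above its group with shares of 0.881 for Fth1 and 0.860 for Srxn1. SMA vehicle array 3 stood above its group with shares of 0.834 for Ddx20, 0.874 for Ebf1 and 0.848 for Usp18. SMA vehicle array 3 stood below its group with a share of 0.856 for Penk. SMA vehicle array 4 stood above its group with shares of 0.836 for Peg3 and 0.851 for Smn1. The Xist and Eif2s3y values of wildtype array 3 are those of its sex-linked transcripts, and that array was also the highest for most interferon-induced genes named above, without passing this rule there.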

How the results depend on the processing

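The direction of Smn1 and its call held under every setting that kept its probe set: its difference was -5.90 with an offset of 1, -2.45 with an offset of 64, and -4.07 to -3.87 when 1 array was left out. Both filters on dim probe sets drop it. With 1 array left out the number past the threshold was 5844 to 8803, with 3090 to 4700 higher, 2721 to 4103 lower and 1343 to 1677 over 2-fold. The lowest totals came without SMA vehicle arrays 4 and 3 and the highest without wildtype array 2. Array quality weights gave 9172, with a weight of 0.1382 for wildtype array 2. An offset of 64 left 934 changed over 2-fold. Keeping only probe sets above the 60th percentile of mean signal, and so fewer tests, gave 4490 past the threshold, 2433 higher, 2057 lower and 690 over 2-fold. Using only arrays with Xist under 1000, a choice made after seeing the data that leaves fewer arrays, gave 1571 past the threshold, 872 higher and 699 lower. That fit held wildtype arrays 1, 2 and 4 and SMA vehicle arrays 2 and 3. It kept the wildtype array with thymus transcripts and left out the ceftriaxone arrays, and the part of each in the lower count was not tested. Xist as a covariate gave 6748. The other settings, the 8 arrays alone, quantile normalization, median centring, no intensity trend and the Gapdh ratio as a covariate, gave 6251 to 6983. The share of calls that were higher was 52.6%, and 58.9% with median centring. Of 379 genes named or given by the naming rule 307 passed, besides Smn1, and none of these turned direction. With only the arrays low in Xist 142 of them no longer passed, and in every other setting without a block at most 14 of those tested did not. The filters at the 40th and 60th percentile tested only 336 and 254 of the 379 genes, and genes they dropped are not counted.

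The replicate numbers of the labels showed no pairing in these values: deviations from the group means correlated at -0.021, 0.010, -0.069 and -0.026 between arrays of the same number. Between arrays of different numbers the range was -0.052 to 0.103. Wildtype array 2 enters every wildtype deviation through the mean, so a weak shared effect could be missed. With the replicate number as a block, over the 8 arrays, 5041 probe sets passed (2741 higher and 2300 lower), 1440 changed over 2-fold, the adjusted p of Smn1 was 0.00243, and 27 of the named genes no longer passed.

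The number of arrays limits what could be seen. On simulated data of this design 23 of 67 genes changed by 0.5 on the log2 scale were called, 47 of 67 changed by 1 and 62 of 66 changed by 2. Far fewer probe sets were changed there than the 7082 that passed in the data, which makes the adjustment for many tests stricter. The simulation also held no array that stood apart. These shares are therefore not the detection rates of the real comparison.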
